A study of Mus musculus with 12 samples.

Results

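The Wnt genes described here are 57 of the 24537 genes in an RNA-seq table of mouse cells. They were taken by gene symbol: 19 Wnt ligands, 10 Frizzled receptors, the coreceptors Lrp5 and Lrp6, 9 secreted antagonists of the Sfrp, Dkk and Wif1 families, 4 R-spondins, their receptors Lgr4, Lgr5 and Lgr6, 5 feedback regulators and 5 nuclear effectors. No row carries the symbol Sfrp3. The study asked how closely stromal cells turned into epithelium resemble natural epidermal cells. It compared 4 groups of cultured cells with 3 samples each: Pdgfra (+) adipose-derived stromal cells (ADSCs) from subcutaneous fat, induced stratified epithelial progenitors converted from such ADSCs in culture (in vitro iSEPs), epithelial cells cultured from tissue converted from ADSCs in the animal (in vivo iSEPs), and keratinocytes from back skin. Each group has a sample from mouse 1, mouse 2 and mouse 3, so that the numbers tie the samples of one animal together.

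All 12 samples carry the Pdgfra-creERxLSL-tdTomato genotype, in which an inducible Cre under Pdgfra regulation switches on a red label in Pdgfra-expressing cells, and all are primary cultures. The labels state no age. The iSEP conversion uses introduced transcription factors, as known for this system, and MYC is among them. ADSCs grew in DMEM with 10% FBS and the other 3 groups in keratinocyte medium without serum. Thus the medium changed together with the cell type in every comparison with ADSCs and the effects cannot be told apart.

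Wnt ligands are secreted lipid-modified proteins that bind Frizzled receptors. With Lrp5 or Lrp6 as coreceptor they stabilise beta-catenin, which joins TCF/LEF proteins on DNA, and through other coreceptors such as Ror2 they act on cell polarity and movement without beta-catenin. Sfrp and Wif1 proteins bind the ligands, classical Dkk proteins bind Lrp5 and Lrp6, and R-spondins acting through Lgr receptors keep Frizzled at the cell surface by blocking the ubiquitin ligases Rnf43 and Znrf3. In skin the pathway maintains dividing epidermal cells and hair follicles, and in fat stroma it is known for restraining adipocyte formation.

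The libraries held an estimated 21010000 to 27780000 reads in listed genes, with 10845 to 11349 genes at 1 FPKM or more (FPKM, fragments per kilobase of gene scaled to library depth). The group labels matched their defining markers. Summed over the 9 stromal markers, ADSCs read 6541 to 8270 FPKM and the other 9 libraries 29.4 to 273. Over the 8 basal keratinocyte markers, ADSCs read 33.9 to 35.5 FPKM and the others 10420 to 23440. The lowest of these was the in vivo iSEP library of mouse 3, which stood apart from its group with a simple epithelium sum (Krt7, Krt8, Krt18, Krt19, Epcam) of 366 FPKM against 21.5 and 25.8. Keratinocytes read 288 to 308 on that sum. Of the 5 fat cell markers, Adipoq and Plin1 were listed at 0 in every library, and the sum of 24.1 to 30.9 FPKM in ADSCs and 1.13 to 20.1 elsewhere was mostly Fabp4. Sums over the 6 melanocyte markers ran from 1.63 to 4.75 FPKM with Tyr at 0 throughout, and over the 6 immune markers from 2.71 to 59.1 with Cd3e at 0. The pericyte and smooth muscle sum, nearly all Acta2, was 1343 to 2779 FPKM in ADSCs and 798 to 2951 in the in vivo iSEPs, against 183 to 438 in keratinocytes and 359 to 564 in the in vitro iSEPs. In bulk RNA, fewer cells of a type and less RNA per cell cannot be told apart.

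Of the 57 genes, 37 reached 1 FPKM in at least 3 of the 12 libraries and were tested, and 20 did not. A gene expressed in ADSCs alone had to reach it in all 3 ADSC libraries, an epithelial gene in any 3 epithelial libraries. Counts by direction against ADSCs thus depend on the filter. A gene was called when limma's adjusted p, taken over all 12364 genes tested, was below 0.05. Differences are in log2(FPKM + 1) units with their standard errors, which understate the change of low genes, and values per library are in FPKM in the order mouse 1, 2, 3. Against ADSCs, 14 of the 37 were higher and 15 lower in the in vitro iSEPs, where 53.8% of all genes were called (32.1% higher, 21.7% lower). For in vivo iSEPs the counts were 15 higher and 13 lower against a background of 47.6% (27.6% and 20.0%). Keratinocytes gave 15 higher and 12 lower against 53.5% (32.8% and 20.7%). The libraries of the 2 groups did not overlap for 32, 31 and 34 of the 37 genes in these comparisons, beside 63.7%, 54.2% and 69.5% of all genes. The 3 comparisons share the ADSC libraries. Between in vitro iSEPs and keratinocytes 5 genes were higher and 5 lower, against 11.3% of all genes called. Between in vivo iSEPs and keratinocytes 4 were higher and 2 lower, against 7.48% (3.41% and 4.08%), and these comparisons share the keratinocytes. None was called between the kinds of iSEP, where the background was 1.63% (0.679% higher in vivo and 0.946% lower). Scaling all libraries to a common median lowered the share of called genes that were higher from 59.7% to 47.3%, from 57.9% to 48.1% and from 61.4% to 46.8% in the 3 comparisons with ADSCs, and raised it from 45.5% to 56.5% between in vivo iSEPs and keratinocytes. The Wnt gene counts were then 14 higher and 16 lower, 13 and 15, 15 and 16, and 4 and 2. Median scaling added Fzd1 as lower in both kinds of iSEP (adjusted p = 0.0377 and 0.0429), Fzd8 in the in vivo iSEPs (0.025), and Fzd7, Fzd8, Lrp6 and Tcf7l2 in keratinocytes (0.0138 to 0.0284), and lost Wnt5a and Znrf3 as higher in the in vivo iSEPs (0.0598 and 0.107).

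**Figure D1:**
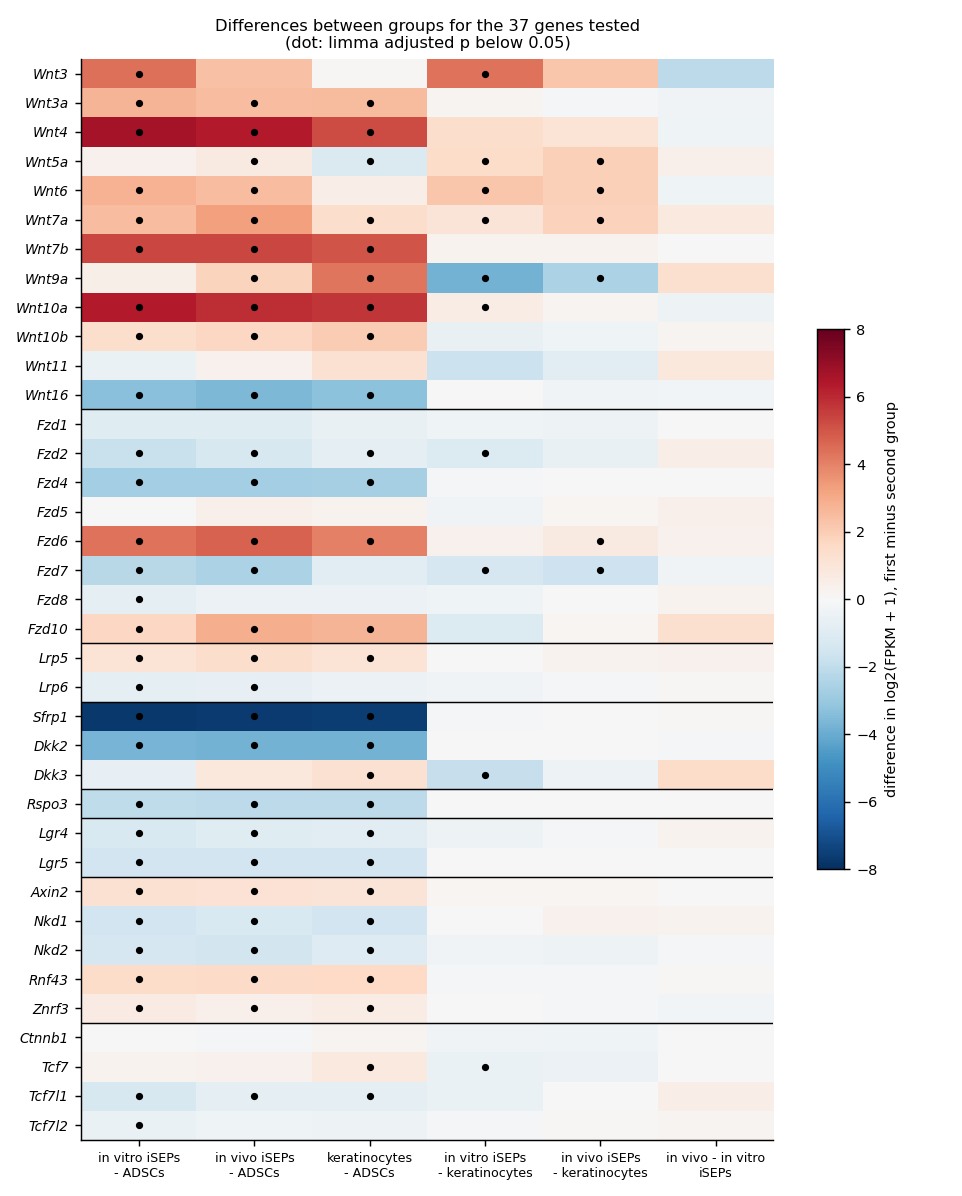
Differences between groups for the 37 Wnt genes tested, in rows by gene class and in columns by comparison. Colour gives the difference in log2(FPKM + 1), first group minus second, and a dot marks an adjusted p below 0.05. The 3 columns against ADSCs hold most dots, and the last column, between the kinds of iSEP, holds none.

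Promoter sequences are shown for 5 genes that the results below turn on: Wnt4, the leading ligand of all epithelial libraries, Wnt3 and Wnt9a, which differed between iSEPs and keratinocytes, and Wnt16 and Dkk2, which were higher in ADSCs. Each is the 250 bases before the RefSeq transcription start (GRCm38.p6, the sequence of mm10), read 5′ to 3′ on the strand of the gene, with every CpG dinucleotide in capitals. The windows lie at chr4:137277385-137277634 for Wnt4, chr11:103773925-103774174 for Wnt3, chr11:59306680-59306929 for Wnt9a, chr6:22287977-22288226 for Wnt16 and chr3:132085042-132085291 for Dkk2, and each ends at the base before the start of its deposited gene model.
Wnt4: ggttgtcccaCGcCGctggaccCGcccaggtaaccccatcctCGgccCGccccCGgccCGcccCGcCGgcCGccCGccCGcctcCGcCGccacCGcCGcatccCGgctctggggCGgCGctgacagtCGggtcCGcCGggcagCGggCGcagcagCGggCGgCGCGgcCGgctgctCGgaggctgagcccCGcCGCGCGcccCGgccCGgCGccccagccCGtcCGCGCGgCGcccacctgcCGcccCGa
Wnt3: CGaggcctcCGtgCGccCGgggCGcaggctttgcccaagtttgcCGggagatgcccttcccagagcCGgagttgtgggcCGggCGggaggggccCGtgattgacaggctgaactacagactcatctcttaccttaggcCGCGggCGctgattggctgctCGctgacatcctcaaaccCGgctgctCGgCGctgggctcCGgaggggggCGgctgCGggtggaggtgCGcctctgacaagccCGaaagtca
Wnt9a: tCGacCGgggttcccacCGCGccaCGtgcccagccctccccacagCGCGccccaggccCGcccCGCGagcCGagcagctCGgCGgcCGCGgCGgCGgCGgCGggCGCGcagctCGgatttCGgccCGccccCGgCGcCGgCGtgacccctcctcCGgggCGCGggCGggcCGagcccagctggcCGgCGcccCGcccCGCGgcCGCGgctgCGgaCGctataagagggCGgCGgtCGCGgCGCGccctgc
Wnt16: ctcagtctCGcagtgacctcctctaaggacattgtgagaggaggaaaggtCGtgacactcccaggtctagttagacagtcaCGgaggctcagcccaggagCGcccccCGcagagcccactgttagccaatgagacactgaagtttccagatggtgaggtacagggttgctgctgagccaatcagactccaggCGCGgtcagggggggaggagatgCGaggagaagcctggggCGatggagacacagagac
Dkk2: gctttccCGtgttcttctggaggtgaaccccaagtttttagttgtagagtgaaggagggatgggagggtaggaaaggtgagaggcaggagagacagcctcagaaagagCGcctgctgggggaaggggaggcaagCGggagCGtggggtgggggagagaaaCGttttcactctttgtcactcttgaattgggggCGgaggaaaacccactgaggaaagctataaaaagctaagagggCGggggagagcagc

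The 5 windows differed widely in base composition. Wnt4 and Wnt9a held 44 and 48 CpGs in 250 bases with 85.2% and 84.4% G and C, Wnt3 held 22 with 68%, Wnt16 held 9 with 59.2% and Dkk2 held 7 with 55.6%. RefSeq windows were found for 39 of the 57 genes, 38 of them within 30 bases of the deposited start. Their CpG count ranged from 4 to 48 with a median of 22, against a median of 6 over all 32851 windows in the table. The median was 28 for the 9 with a window among genes higher in the in vitro iSEPs than in ADSCs and 15.5 for the 8 among those lower, and the ranges, 8 to 44 and 7 to 30, overlapped. It was highest, at 34.5 (range 12 to 48), for the 6 not called in that comparison, and 20 for the 15 not tested. Motifs were searched as plain letters on both strands. The TCF/LEF core CTTTGA was in 3 of the 39 windows (13.8% of all windows), the AP-1 motif TGANTCA in 0 (6.75%), the E-box CACCTG in 9 (17.2%) and the grainyhead motif AACCNGTT in 1 (1.79%). Among the 5 printed windows the only match to these motifs was the CACCTG of Wnt4, 15 bases before its start (lower-case cacctg near the end of the line). Other forms of the E-box were not searched, such as the CACGTG in the Wnt9a window. The E-box count includes the Nkd1 window, which lies 6289 bases from the deposited start of that gene. These matches describe letters in a short window, not bound sites.

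The ligand repertoire differed in amount and in kind between stroma and epithelium. Summed over the 19 ligands, ADSCs held 28.7 ± 1.94 FPKM (SD, n = 3), in vitro iSEPs 414 ± 141, in vivo iSEPs 353 ± 80.0 and keratinocytes 236 ± 1.69. ADSCs expressed 3 to 4 ligands at 1 FPKM or more, both kinds of iSEP 10 and keratinocytes 9. Wnt5a and Wnt16 together made up most of the ADSC sum, with mean shares of 37.3% and 42.4%. Wnt4 led every epithelial library, at 52.0% of the sum in the in vitro iSEPs, 49.2% in the in vivo iSEPs and 32.7% in keratinocytes. Wnt10a or Wnt7b came next in all of them but the keratinocytes of mouse 2, where Wnt9a at 22.9% edged past Wnt10a at 22.3%. Of the 12 ligands tested, 8, 9 and 7 were higher and 1, 1 and 2 lower than in ADSCs in the in vitro iSEPs, the in vivo iSEPs and keratinocytes, where 32.1%, 27.6% and 32.8% of all genes were higher and 21.7%, 20.0% and 20.7% lower. Wnt3, Wnt3a, Wnt6, Wnt7a, Wnt7b, Wnt10a, Wnt10b and Wnt11 read below 1 FPKM in every ADSC library and passed the filter only through epithelial libraries. These counts therefore depend on the filter and are not support for a rise of ligands as a class.

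**Figure D2:**
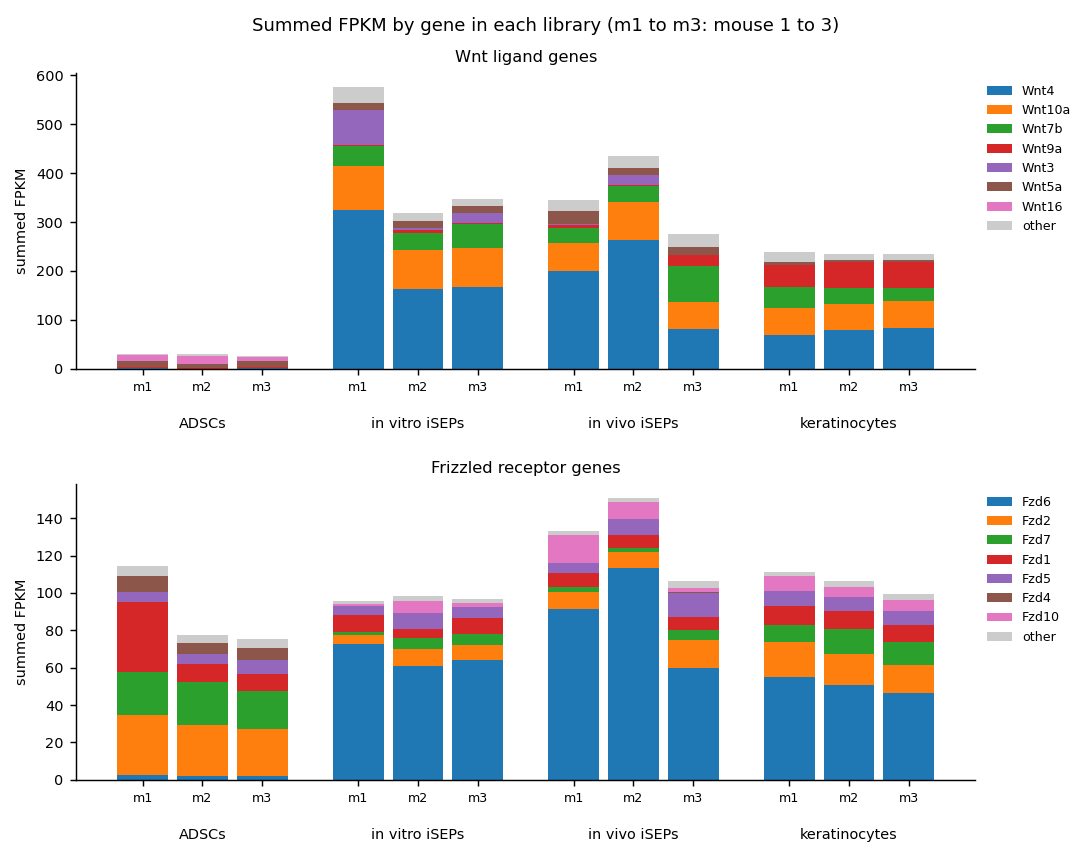
Summed FPKM of the 19 ligand genes (top) and 10 Frizzled genes (bottom) in each of the 12 libraries, stacked by gene and starting at 0. The ligand sum stays under 30 FPKM in ADSCs and is between 234.8 and 575.5 in the other libraries, and Fzd6 takes the largest share of the Frizzled sum in every epithelial library.

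Wnt4, a ligand known for epithelial and kidney development, read 0.879, 0.455 and 2.16 FPKM in ADSCs, 325, 164 and 167 in the in vitro iSEPs, 199, 263 and 81.6 in the in vivo iSEPs, and 68.7, 79.9 and 82.7 in keratinocytes. All 9 epithelial libraries lay above the ADSCs, by 6.67 ± 0.42 (adjusted p = 2.32e-07) in the in vitro iSEPs, 6.32 ± 0.42 (adjusted p = 3.77e-07) in the in vivo iSEPs, and 5.25 ± 0.42 (adjusted p = 1.58e-06) in keratinocytes. Its mean was 2.83 times the keratinocyte mean in the in vitro iSEPs without overlap, which missed the threshold (1.42 ± 0.42, adjusted p = 0.0543). The difference was called with only the 2 groups compared in the fit (adjusted p = 0.0203), after quantile normalization (0.04775) and without mouse 3 in every group (0.04751). In vivo the mouse 3 library sat within the keratinocyte range, and the difference of 1.07 ± 0.42 (adjusted p = 0.159) was not called. Without that library it was (adjusted p = 0.015).

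Wnt10a, which is needed for teeth and hair, rose from almost nothing to a narrow high range. It read 0.08, 0.017 and 0.055 FPKM in ADSCs, 90.0, 79.8 and 79 in the in vitro iSEPs, 57.3, 79 and 54.5 in the in vivo iSEPs, and 56.4, 52.3 and 55.3 in keratinocytes. The rises over ADSCs were 6.32 ± 0.13 (adjusted p = 8.62e-11), 5.92 ± 0.13 (adjusted p = 1.43e-10) and 5.73 ± 0.13 (adjusted p = 1.63e-10). In vitro iSEPs also stood above keratinocytes by 0.59 ± 0.13 (adjusted p = 0.0183), a call lost without the in vitro iSEP library of mouse 1 (adjusted p = 0.0539) or the keratinocyte library of mouse 2 (0.0792) or mouse 3 (0.0603). In vivo iSEPs overlapped the keratinocytes, and the 95% interval of that difference was -0.10 to 0.49.

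Wnt7b, a ligand of growing epithelia, followed the same division. ADSCs read 0.037, 0.01 and 0.074 FPKM, in vitro iSEPs 41.8, 34.3 and 49.6, in vivo iSEPs 31, 30.9 and 73.4 and keratinocytes 42, 32.6 and 26.8. The differences from ADSCs were 5.35 ± 0.30 (adjusted p = 7.83e-08), 5.35 ± 0.30 (adjusted p = 7.71e-08) and 5.04 ± 0.30 (adjusted p = 1.12e-07). The 3 epithelial groups overlapped one another, and the high in vivo value came from mouse 3.

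Wnt7a, the close relative of Wnt7b, separated iSEPs from keratinocytes as well as from ADSCs. It read 0.01, 0.011 and 0 FPKM in ADSCs, 6.91, 3.24 and 4.03 in the in vitro iSEPs, 7.42, 8.22 and 10.5 in the in vivo iSEPs, and 1.42, 1.69 and 1.95 in keratinocytes. No 2 groups overlapped. Differences from ADSCs were 2.46 ± 0.21 (adjusted p = 3.04e-06), 3.26 ± 0.21 (adjusted p = 3.26e-07) and 1.41 ± 0.21 (adjusted p = 2.14e-04). Its mean in the in vivo iSEPs was 5.17 times and in the in vitro iSEPs 2.80 times the keratinocyte mean, with differences of 1.85 ± 0.21 (adjusted p = 8.32e-04) and 1.04 ± 0.21 (adjusted p = 0.0123). The in vitro call was lost without the keratinocyte library of mouse 2 (adjusted p = 0.0502).

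Wnt6, expressed in developing surface ectoderm, was listed at 0 in all 3 ADSC libraries, so no fold against them is given. In vitro iSEPs read 10.9, 4.36 and 4.12 FPKM, in vivo iSEPs 2.38, 8.65 and 4.02 and keratinocytes 0.74, 0.402 and 0.29. Both kinds of iSEP were called higher than ADSCs, and keratinocytes were not. Keratinocytes were called with only the 2 groups compared in the fit (adjusted p = 0.0108) and with 0.1 instead of 1 added to FPKM (0.00167). Every iSEP library lay above every keratinocyte library, by 2.23 ± 0.38 (adjusted p = 0.00511) in vitro and 1.90 ± 0.38 (adjusted p = 0.0127) in vivo. The in vivo call was lost without the keratinocyte library of mouse 2 (adjusted p = 0.0573) or of mouse 3 (0.059). Wnt6 lies 6.70 kb from Wnt10a on chromosome 1, on the same strand, and both were at or near 0 in ADSCs.

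Wnt3a, a classical activator of beta-catenin, was near 0 in ADSCs and present in all epithelial libraries. The values were 0, 0.012 and 0 FPKM in ADSCs, 11.9, 4.78 and 3.13 in the in vitro iSEPs, 9.75, 5.54 and 1.47 in the in vivo iSEPs, and 4.45, 4.29 and 6.17 in keratinocytes. It rose by 2.75 ± 0.50 (adjusted p = 7.38e-04), 2.48 ± 0.50 (adjusted p = 0.00171) and 2.56 ± 0.50 (adjusted p = 0.00121), and the epithelial groups overlapped.

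Wnt10b, known for restraining adipocyte formation and for hair growth, was low in ADSCs at 0.297, 0.475 and 0.322 FPKM. It read 2.35, 4.23 and 1.73 in the in vitro iSEPs, 2.89, 2.74 and 4.39 in the in vivo iSEPs, and 8.37, 3.67 and 2.86 in keratinocytes. The rises were 1.41 ± 0.33 (adjusted p = 0.00353), 1.65 ± 0.33 (adjusted p = 0.00151) and 2.02 ± 0.33 (adjusted p = 3.24e-04). Again the epithelial groups overlapped.

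Wnt3, a beta-catenin activating ligand, varied widely among the iSEP libraries. It was listed at 0 in ADSCs and read 71.5, 5.17 and 20.8 FPKM in the in vitro iSEPs, 3.15, 19.7 and 0.424 in the in vivo iSEPs, and 0.149, 0.022 and 0.011 in keratinocytes. All 6 iSEP libraries lay above all 3 keratinocyte libraries. In vitro iSEPs were higher than keratinocytes by 4.33 ± 0.93 (adjusted p = 0.0144) and than ADSCs by 4.42 ± 0.93 (adjusted p = 0.002). The first call was lost without the keratinocyte library of mouse 2 (adjusted p = 0.0551) or of mouse 3 (0.0523), and also without mouse 1 (0.119) or mouse 3 (0.0912) in every group. In vivo iSEPs were not called against either (2.23 ± 0.93, adjusted p = 0.181 over keratinocytes and 2.31 ± 0.93, adjusted p = 0.0604 over ADSCs), and without the mouse 3 library both differences were (adjusted p = 0.0393 and 0.0102).

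Keratins of the suprabasal layers were uneven over the same libraries. Krt1, a keratin of differentiating epidermal cells, read 167, 1.17 and 21.7 FPKM in the in vitro iSEPs and 7.37, 37.4 and 0.979 in the in vivo iSEPs. Its partner Krt10 read 92.3, 2.95 and 34.9 and then 5.0, 21.9 and 3.09. In both groups the library with most Wnt3 had most Krt1 and Krt10, but the other suprabasal markers did not all follow. Sbsn, the most abundant of the 5, was highest in the in vitro library of mouse 3, at 1202 FPKM against 817 in mouse 1. Lor was lowest in the in vivo library of mouse 2, at 1.0 FPKM against 6.55 and 6.57, where Wnt3 was highest. Summed over the 5 suprabasal markers, in vitro iSEPs read 1140, 759 and 1271 FPKM, in vivo iSEPs 426, 590 and 328, keratinocytes 273 to 312 and ADSCs 15.1 to 22.3. The part of differentiating cells in the Wnt3 values was not tested.

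Wnt9a, a ligand of joint and limb tissue, was the one ligand called higher in keratinocytes than in iSEPs. It read 44.5, 53.7 and 53.8 FPKM there, 1.07, 5.2 and 2.98 in the in vitro iSEPs, 6.12, 3.31 and 23.5 in the in vivo iSEPs, and 2.19, 1.33 and 1.48 in ADSCs. Both kinds of iSEP lay below all keratinocytes, the in vitro mean 16.4 times and the in vivo mean 4.61 times lower, by -3.79 ± 0.55 (adjusted p = 0.00224) and -2.50 ± 0.55 (adjusted p = 0.0194). The in vitro difference was called in every alternative analysis run. The in vivo difference was not called without the in vivo iSEP library of mouse 2 (adjusted p = 0.0776) or the keratinocyte library of mouse 2 (0.0787) or mouse 3 (0.0759). In vitro iSEPs overlapped ADSCs (0.49 ± 0.55, adjusted p = 0.472). In vivo iSEPs exceeded them by 1.78 ± 0.55 (adjusted p = 0.0192), a call lost without the ADSC library of mouse 2 (adjusted p = 0.06) or mouse 3 (0.0541). Wnt3a lies 16.2 kb from Wnt9a on chromosome 11, on the other strand, and did not share its pattern: its epithelial groups overlapped.

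Wnt5a, the main ligand of signalling without beta-catenin, was present in every group and lowest in keratinocytes. ADSCs read 12.3, 8.33 and 11.3 FPKM, in vitro iSEPs 13.5, 13.1 and 14.1, in vivo iSEPs 26.1, 14.4 and 16.3 and keratinocytes 6.93, 3.33 and 3.13. Keratinocytes were below ADSCs by -1.14 ± 0.27 (adjusted p = 0.00425). In vitro iSEPs did not differ from ADSCs beyond the threshold (0.34 ± 0.27, adjusted p = 0.313; 95% interval -0.26 to 0.93), and in vivo iSEPs were higher by 0.74 ± 0.27 (adjusted p = 0.041). That last call was lost without any ADSC library or the in vivo library of mouse 1 (adjusted p = 0.0507 to 0.146). Against keratinocytes both kinds of iSEP were higher, 3.04 times in vitro and 4.23 times in vivo, with differences of 1.48 ± 0.27 (adjusted p = 0.00715) and 1.89 ± 0.27 (adjusted p = 0.00236).

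Wnt16, a ligand of bone and other connective tissues, marked the stroma. ADSCs read 11.9, 17 and 8.04 FPKM, in vitro iSEPs 0.704, 0 and 0.146, in vivo iSEPs 0.107, 0.02 and 0.038 and keratinocytes 0.24, 0.416 and 0.22. The differences from ADSCs were -3.35 ± 0.25 (adjusted p = 8.33e-07), -3.60 ± 0.25 (adjusted p = 4.93e-07) and -3.31 ± 0.25 (adjusted p = 8.93e-07). Every epithelial library read below 1 FPKM.

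Wnt11, a ligand of cell movement that falls outside the rule for full values and was singled out after they were seen, turned on one library. It read 0.385, 0.589 and 0.813 FPKM in ADSCs, 0.098, 0.133 and 0.058 in the in vitro iSEPs, 0.103, 0.048 and 6.02 in the in vivo iSEPs, and 3.65, 2.32 and 2.11 in keratinocytes. No comparison was called, though all keratinocyte libraries lay above all ADSC and in vitro iSEP libraries. With only the 2 groups compared in the fit, keratinocytes were called above ADSCs (adjusted p = 0.000917) and in vitro iSEPs (0.00283). In vitro iSEPs were then below ADSCs (0.0232). Both keratinocyte differences were also called without mouse 3 in every group (0.0017 and 0.0103). Without the in vivo library of mouse 3, the in vivo iSEPs were below ADSCs by a log2 difference of -0.56 (adjusted p = 0.0313) in place of 0.34 ± 0.57 (adjusted p = 0.654), and below keratinocytes with an adjusted p of 0.000334 in place of 0.423. Wnt9a, at 23.5 FPKM, and Wnt7b, at 73.4, were also highest of the in vivo group in that library, and Wnt3 and Wnt4 were lowest. Krt8 read 103 FPKM there against 0.159 and 0.166 in the other in vivo libraries and 21.9 to 33.6 in keratinocytes. Krt18 read 95.5 against 2.79 and 2.66, Epcam 116 against 16.6 and 6.87, and Krt7 46.2 against 5 and 7.82. Krt19 differed little, at 4.58 against 1.21 and 4.03. Keratinocytes held these markers too, with 27.5 to 37.3 FPKM for Krt18, 138 to 162 for Epcam and 47.6 to 110 for Krt7. The part of simple epithelial cells in the Wnt values was not tested.

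**Figure D3:**
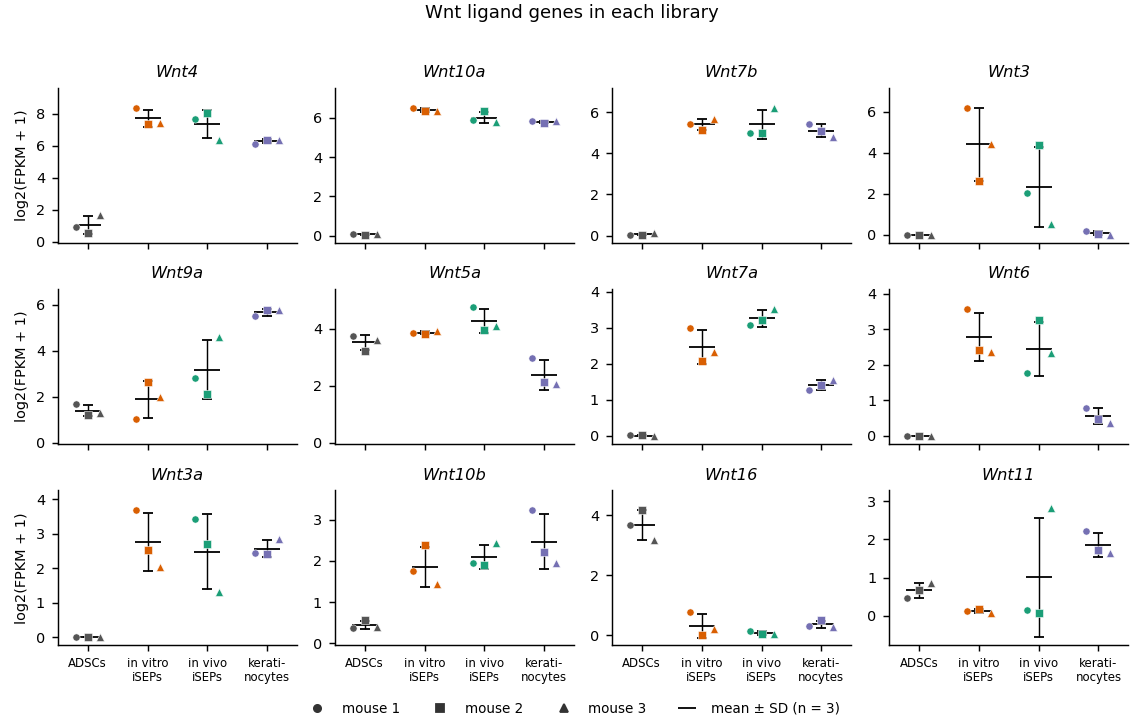
Level of the 12 ligand genes tested, as log2(FPKM + 1), in each library by group. Points are libraries shaped by mouse, and bars are mean ± SD of 3. Wnt4, Wnt10a and Wnt7b are high in all epithelial libraries, and Wnt16 is confined to ADSCs above 1 FPKM. Against keratinocytes, Wnt5a, Wnt6 and Wnt7a are called higher and Wnt9a lower in both kinds of iSEP, and Wnt3 and Wnt10a higher in the in vitro iSEPs alone.

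The other 7 ligands did not reach the filter. Wnt2, Wnt2b and Wnt5b were low in ADSCs, at means of 0.629, 0.581 and 0.637 FPKM, and lower on average elsewhere, with means of at most 0.233. Wnt1, Wnt8a, Wnt8b and Wnt9b stayed at or below 0.19 FPKM in every library. Wnt9b lies 24.4 kb from Wnt3 on chromosome 11, and its highest value, 0.19 FPKM, was in the in vitro iSEP library of mouse 1, where Wnt3 read 71.5. Wnt1 lies 11.7 kb from Wnt10b on chromosome 15.

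The leading Frizzled receptors differed between stroma and epithelium. Their sum was 89.0 ± 21.9 FPKM (SD, n = 3) in ADSCs, 96.8 ± 1.44 in the in vitro iSEPs, 130 ± 22.2 in the in vivo iSEPs and 106 ± 5.92 in keratinocytes. In ADSCs, Fzd2, Fzd7 and Fzd1 held mean shares of 32.0%, 25.6% and 19.3%. Fzd6 held 2.53% there, and 68.1%, 66.6% and 48.0% in the in vitro iSEPs, the in vivo iSEPs and keratinocytes. Of the 8 tested, 2 were higher in each epithelial group than in ADSCs, and 4, 3 and 2 were lower in the in vitro iSEPs, the in vivo iSEPs and keratinocytes. Of all genes, 32.1%, 27.6% and 32.8% were higher and 21.7%, 20.0% and 20.7% lower, so the higher count is near the background.

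Fzd6, the receptor of planar polarity that orients hairs, read 2.75, 1.96 and 2.0 FPKM in ADSCs, 72.6, 60.8 and 64.3 in the in vitro iSEPs, 91.4, 113 and 60.0 in the in vivo iSEPs, and 54.8, 50.7 and 46.7 in keratinocytes. Epithelial means were 29.4, 39.4 and 22.7 times the ADSC mean, with differences of 4.37 ± 0.20 (adjusted p = 1.78e-08), 4.75 ± 0.20 (adjusted p = 8.82e-09) and 4.0 ± 0.20 (adjusted p = 2.98e-08). In vivo iSEPs also lay above keratinocytes (0.74 ± 0.20, adjusted p = 0.0466). That call was lost without the in vivo library of mouse 1 or 2 or any keratinocyte library (adjusted p = 0.0722 to 0.181).

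Fzd10, the other Frizzled that rose, was near 0 in ADSCs at 0.084, 0.103 and 0.072 FPKM. It read 0.822, 6.45 and 1.82 in the in vitro iSEPs, 15.1, 8.8 and 2.29 in the in vivo iSEPs, and 7.54, 5.26 and 6.1 in keratinocytes. It spread widely over the iSEPs, and the 3 epithelial groups overlapped. Differences from ADSCs were 1.63 ± 0.56 (adjusted p = 0.0295), 2.89 ± 0.56 (adjusted p = 0.00141) and 2.74 ± 0.56 (adjusted p = 0.00179). The first was lost without any single ADSC library (adjusted p = 0.0675 to 0.0692) or the in vitro library of mouse 2 (0.117).

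Fzd2 and Fzd4 fell in all 3 epithelial groups, Fzd7 in both kinds of iSEP and Fzd8 in the in vitro iSEPs. Fzd2, which can bind Wnt5a, read 31.9, 27.1 and 24.9 FPKM in ADSCs, 5.15, 9.13 and 8.07 in the in vitro iSEPs, 9.33, 8.96 and 14.7 in the in vivo iSEPs, and 19, 16.6 and 15 in keratinocytes. It fell in all 3 comparisons (-1.80 ± 0.22, adjusted p = 3.80e-05, -1.30 ± 0.22, adjusted p = 5.03e-04 and -0.70 ± 0.22, adjusted p = 0.0192), the last lost without the ADSC library of mouse 1 (adjusted p = 0.0701) or the keratinocyte library of mouse 2 (0.051) or mouse 3 (0.069). In vitro iSEPs were below keratinocytes as well, by -1.11 ± 0.22 (adjusted p = 0.00991). In vivo iSEPs were so only without the mouse 3 library (adjusted p = 0.0255, against -0.60 ± 0.22, adjusted p = 0.126 with it).

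Fzd7, a receptor found in many progenitor cells, read 22.9, 23.1 and 20.4 FPKM in ADSCs, 1.61, 5.69 and 5.55 in the in vitro iSEPs, 2.26, 1.96 and 5.22 in the in vivo iSEPs, and 8.92, 13.2 and 12.2 in keratinocytes. Keratinocytes sat between ADSCs and iSEPs without overlap. The falls from ADSCs were -2.25 ± 0.36 (adjusted p = 3.52e-04) in vitro and -2.56 ± 0.36 (adjusted p = 1.52e-04) in vivo, and the keratinocyte difference of -0.91 ± 0.36 (adjusted p = 0.0554) missed the threshold but passed it with the mouse as a block (adjusted p = 0.0381). Both kinds of iSEP were below keratinocytes, in vitro by -1.34 ± 0.36 (adjusted p = 0.0391) and in vivo by -1.65 ± 0.36 (adjusted p = 0.0203). The in vitro call was lost without the in vitro iSEP library of mouse 1 or 3 or any keratinocyte library (adjusted p = 0.0505 to 0.135). The in vivo call was lost without the in vivo library of mouse 2 (0.0959) or the keratinocyte library of mouse 2 (0.0907) or mouse 3 (0.0824).

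Fzd4, the receptor of retinal vessel growth, fell below 1 FPKM in all epithelial libraries. It read 8.39, 5.76 and 6.33 FPKM in ADSCs, against 0.077 to 0.261 across all 9 epithelial libraries. Its differences from ADSCs were -2.75 ± 0.14 (adjusted p = 3.82e-08), -2.69 ± 0.14 (adjusted p = 4.52e-08) and -2.65 ± 0.14 (adjusted p = 4.61e-08).

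Fzd1 and Fzd5 were not called in any comparison. Fzd1 read 37.6, 9.92 and 9.09 FPKM in ADSCs, 9.07, 5.15 and 8.67 in the in vitro iSEPs, 7.62, 6.99 and 7.13 in the in vivo iSEPs, and 10.1, 9.93 and 9.18 in keratinocytes, with mouse 1 far above the other ADSCs. Its difference in the in vitro iSEPs (-0.94 ± 0.41, adjusted p = 0.0763) was called without the ADSC library of mouse 2 (adjusted p = 0.0457) or mouse 3 (0.0312), and likewise in the in vivo iSEPs (0.0466 and 0.0309). Fzd5 read 5.46, 5.16 and 7.62, 4.41, 8.5 and 6.05, 5.2, 8.5 and 13.2 and 8.26, 7.22 and 7.1 FPKM in the 4 groups in the same order, which all overlapped ADSCs. It was called in the in vivo iSEPs against ADSCs without the in vivo library of mouse 1 (adjusted p = 0.0392). Fzd8, outside the rule for full values, ranged from 1.32 to 4.11 FPKM and was lower in the in vitro iSEPs than in ADSCs (-0.79 ± 0.19, adjusted p = 0.00458). Its difference in the in vivo iSEPs (-0.49 ± 0.19, adjusted p = 0.054) was called without the mouse 3 library (adjusted p = 0.00328). Fzd3, at 0.992, 1.07 and 1.13 FPKM in ADSCs and at most 0.573 elsewhere, and Fzd9, at most 0.267 everywhere, were below the filter.

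Of the coreceptors, Lrp5 rose in all 3 epithelial groups and Lrp6 fell in both kinds of iSEP. Lrp5 read 9.04, 6.7 and 6.54 FPKM in ADSCs, 18.4, 17.8 and 13.8 in the in vitro iSEPs, 17.7, 22.8 and 22.3 in the in vivo iSEPs, and 17, 16 and 17.1 in keratinocytes, 2.24, 2.82 and 2.25 times the ADSC mean, by 1.07 ± 0.15 (adjusted p = 1.41e-04), 1.39 ± 0.15 (adjusted p = 2.17e-05) and 1.08 ± 0.15 (adjusted p = 1.27e-04). Lrp6 read 24.2, 13 and 13.2 FPKM in ADSCs, 9.18, 10.3 and 8.45 in the in vitro iSEPs, 9.22, 10.4 and 10.6 in the in vivo iSEPs, and 11.6, 11.4 and 11.5 in keratinocytes, with all ADSCs above all other libraries. Its differences were -0.73 ± 0.20 (adjusted p = 0.0087), -0.63 ± 0.20 (adjusted p = 0.0214) and, not called, -0.46 ± 0.20 (adjusted p = 0.0722). The in vivo fall was lost without the in vivo library of mouse 1 (adjusted p = 0.0607). The keratinocyte difference was called without the ADSC library of mouse 2 (0.0387) or mouse 3 (0.0438), after median scaling (0.0138) and after quantile normalization (0.0173).

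**Figure D4:**
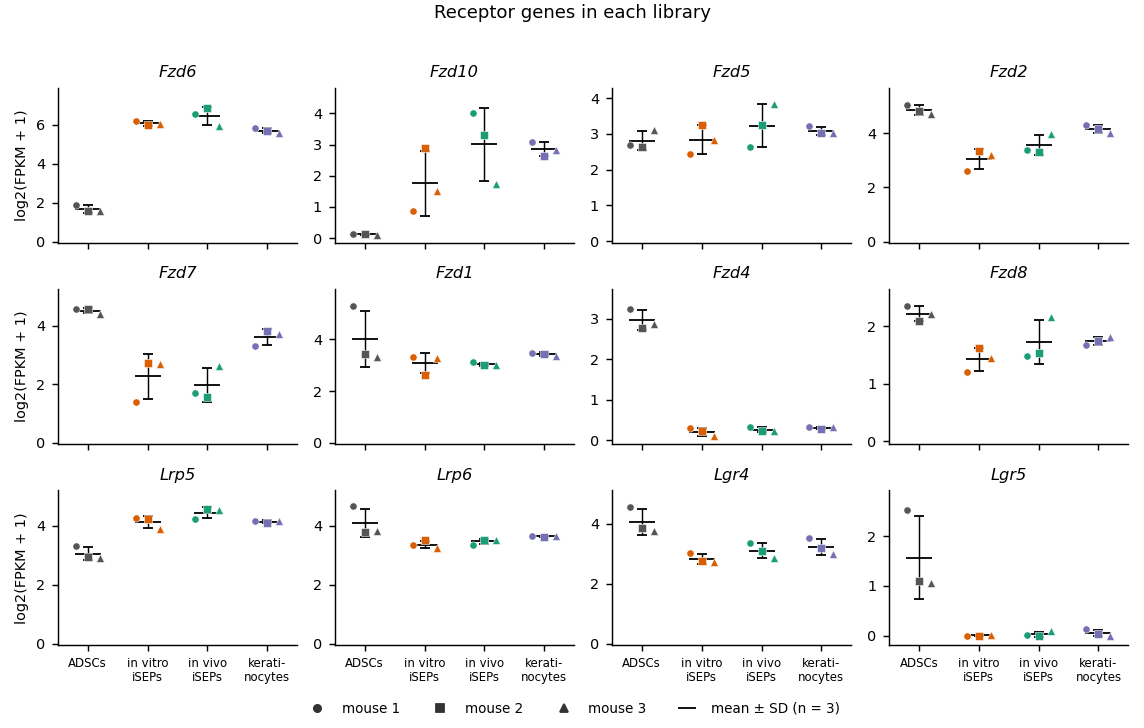
Level of receptor genes, as log2(FPKM + 1), in each library by group. Points are libraries shaped by mouse, and bars are mean ± SD of 3. Fzd6, Fzd10 and Lrp5 are higher in the epithelial groups, Fzd2, Fzd4, Lgr4 and Lgr5 are higher in ADSCs, and Fzd7 in keratinocytes lies between ADSCs and iSEPs.

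Of the 37 genes tested, the secreted antagonist Sfrp1 had the largest fall in each comparison with ADSCs. Sfrp1, which binds Wnt ligands outside the cell, read 555, 204 and 136 FPKM in ADSCs, 0.17, 0.199 and 0.166 in the in vitro iSEPs, 0.473, 0.212 and 0.065 in the in vivo iSEPs, and 0.258, 0.253 and 0.289 in keratinocytes. No epithelial library reached 0.5 FPKM. The differences were -7.73 ± 0.39 (adjusted p = 3.45e-08), -7.66 ± 0.39 (adjusted p = 3.84e-08) and -7.62 ± 0.39 (adjusted p = 3.63e-08). ADSCs of mouse 1 read well above those of mice 2 and 3, and with any single library left out the adjusted p in these 3 comparisons was at most 6.81e-07.

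Dkk2, which binds the Lrp coreceptors, read 13, 16.6 and 10.8 FPKM in ADSCs and at most 0.117 in the 9 epithelial libraries. It fell, with differences of -3.74 ± 0.15 (adjusted p = 5.69e-09), -3.81 ± 0.15 (adjusted p = 4.83e-09) and -3.80 ± 0.15 (adjusted p = 4.48e-09). Unlike Sfrp1 it did not peak in mouse 1.

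Dkk3, a divergent Dickkopf protein not thought to bind the Lrp coreceptors, stayed expressed throughout. It read 43, 23.9 and 18.9 FPKM in ADSCs, 10.7, 26.6 and 16.8 in the in vitro iSEPs, 45.9, 32.1 and 80.2 in the in vivo iSEPs, and 76.4, 56.4 and 60.9 in keratinocytes. Keratinocytes were above ADSCs by 1.22 ± 0.39 (adjusted p = 0.0217) and above in vitro iSEPs by 3.58 times (-1.86 ± 0.39, adjusted p = 0.0135 for iSEPs minus keratinocytes). The first call was lost without the ADSC library of mouse 2 (adjusted p = 0.0676) or mouse 3 (0.0873) or the keratinocyte library of mouse 1 (0.0701), and the second without that keratinocyte library (0.0523). In vivo iSEPs lay above all in vitro iSEPs (1.49 ± 0.39, adjusted p = 0.0932), which was not called, and was called without the in vitro library of mouse 2 (0.0456). Against ADSCs they were called without the ADSC library of mouse 1 (0.0386) or the in vivo library of mouse 2 (0.0446), not otherwise (0.84 ± 0.39, adjusted p = 0.0991).

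The other 6 antagonists were below the filter. Sfrp2 read 4.12, 1.07 and 0.968 FPKM and Sfrp4 1.74, 0.292 and 0.307 in ADSCs, and neither passed 0.166 elsewhere. Wif1 and Dkk1 stayed at or below 0.059 FPKM, and Sfrp5 and Dkk4 were listed at 0 in all 12 libraries. As a class the antagonists summed to 343 ± 240 FPKM (SD, n = 3) in ADSCs, 18.3 ± 8.10 in the in vitro iSEPs, 53.1 ± 24.7 in the in vivo iSEPs and 64.9 ± 10.6 in keratinocytes, and the epithelial sums were nearly all Dkk3.

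Of the 4 R-spondins 1 was tested, Rspo3, and it fell in all 3 epithelial groups. Rspo3, a potentiator of Wnt signalling, read 7.81, 2.62 and 1.48 FPKM in ADSCs and at most 0.056 elsewhere, with differences of -2.06 ± 0.34 (adjusted p = 4.21e-04), -2.09 ± 0.34 (adjusted p = 4.28e-04) and -2.10 ± 0.34 (adjusted p = 3.69e-04). Rspo2 reached 1.69, 0.603 and 0.483 FPKM in ADSCs without passing the filter, Rspo1 stayed at or below 0.073 and Rspo4 was listed at 0 everywhere.

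Lgr5, the R-spondin receptor known as a stem cell marker of gut and hair follicle, read 4.75, 1.15 and 1.09 FPKM in ADSCs and at most 0.092 in the epithelial libraries (-1.56 ± 0.31, adjusted p = 0.00139, -1.53 ± 0.31, adjusted p = 0.0018 and -1.51 ± 0.31, adjusted p = 0.00173). Lgr4 was shared by all groups. It read 22.5, 13.4 and 12.5 FPKM in ADSCs, 7.16, 5.74 and 5.55 in the in vitro iSEPs, 9.23, 7.58 and 6.31 in the in vivo iSEPs, and 10.4, 8.13 and 6.97 in keratinocytes, lower than in ADSCs by -1.22 ± 0.22 (adjusted p = 8.55e-04), -0.94 ± 0.22 (adjusted p = 0.00503) and -0.82 ± 0.22 (adjusted p = 0.00999). Lgr6, a marker of skin stem cells, read 0.322, 1.03 and 1.01 FPKM in ADSCs, 0.378, 0.47 and 0.323 in keratinocytes and at most 0.627 in iSEPs, and was below the filter.

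ADSCs of mouse 1 held the highest Sfrp1, Sfrp2, Sfrp4, Rspo2, Rspo3, Lgr4, Lgr5, Lrp6 and Fzd1 of their group. In that library 8 of the 9 stromal markers were also highest of the 3, and Vim was lowest, at 1082 FPKM against 1131 and 1671. The margin was small for Col1a1, at 1848 FPKM against 1590 and 1779, and for Pdgfrb, at 126 against 102 and 123. It was wide for Col3a1, Dcn, Lum and Pdgfra, at 2278, 116, 10.6 and 46.0 FPKM, against 1313 and 901, 70.7 and 27.2, 2.43 and 0.692, and 23.4 and 22.8 in mice 2 and 3. The part of the stromal makeup in these levels was not tested. Lyz2, an immune marker, was 50.5 FPKM in the ADSCs of mouse 2 against 4.54 and 7.93, and Wnt16 and Dkk2 were highest there.

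The feedback regulators split. Axin2, a direct target of beta-catenin that limits the pathway, read 0.244, 0.16 and 0.169 FPKM in ADSCs, 2.63, 0.921 and 2.1 in the in vitro iSEPs, 2.13, 2.34 and 0.85 in the in vivo iSEPs, and 1.83, 1.3 and 1.29 in keratinocytes. Epithelial means were 9.87, 9.29 and 7.72 times the ADSC mean, by 1.23 ± 0.26 (adjusted p = 0.00229), 1.17 ± 0.26 (adjusted p = 0.00344) and 1.05 ± 0.26 (adjusted p = 0.00602). Epithelial groups overlapped.

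Rnf43, the ubiquitin ligase that removes Frizzled from the surface, was at most 0.008 FPKM in ADSCs and read 1.76, 1.47 and 1.97 in the in vitro iSEPs, 2.93, 1.5 and 1.51 in the in vivo iSEPs, and 2.46, 1.78 and 2.05 in keratinocytes. It rose by 1.44 ± 0.18 (adjusted p = 5.39e-05), 1.53 ± 0.18 (adjusted p = 3.62e-05) and 1.62 ± 0.18 (adjusted p = 2.15e-05). Its relative Znrf3, outside the rule for full values, ranged from 0.886 to 1.15 FPKM in ADSCs and from 1.48 to 2.51 elsewhere, and rose by 0.65 ± 0.14 (adjusted p = 0.00247), 0.41 ± 0.14 (adjusted p = 0.0328) and 0.59 ± 0.14 (adjusted p = 0.00457). The in vivo rise was lost with the mouse as a block (adjusted p = 0.0555), after median scaling (0.107), and without the ADSC library of mouse 1 (0.0649) or 2 (0.098) or the in vivo library of mouse 1 (0.0742) or 2 (0.0881).

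Nkd1 and Nkd2, which bind Dishevelled and damp the signal, went the other way. Nkd1 read 2.09, 2.35 and 1.81 FPKM in ADSCs, 0.072, 0.124 and 0.047 in the in vitro iSEPs, 0.232, 0.468 and 0.328 in the in vivo iSEPs, and 0.062, 0.048 and 0.07 in keratinocytes, and fell, with differences of -1.51 ± 0.12 (adjusted p = 1.39e-06), -1.20 ± 0.12 (adjusted p = 9.83e-06) and -1.54 ± 0.12 (adjusted p = 1.18e-06). Nkd2 read 1.79, 1.54 and 2.44, 0.079, 0.177 and 0.162, 0.054, 0.008 and 0.024 and 0.201, 0.374 and 0.636 FPKM in the same groups, and fell, with differences of -1.35 ± 0.15 (adjusted p = 2.20e-05), -1.50 ± 0.15 (adjusted p = 1.10e-05) and -1.06 ± 0.15 (adjusted p = 1.38e-04). Axin2 and Rnf43 moved opposite to Nkd1 and Nkd2 in all 3 comparisons with ADSCs, which share those libraries. All values of these 5 genes are low, at most 2.93 FPKM.

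Among the nuclear effectors, Ctnnb1, which encodes beta-catenin, was the most abundant. It read 225, 215 and 186 FPKM in ADSCs, 190.5, 194 and 216 in the in vitro iSEPs, 222, 169.7 and 186 in the in vivo iSEPs, and 248, 236 and 241 in keratinocytes, and was called in no comparison. The 3 keratinocyte libraries lay above the other 9. The 95% intervals against ADSCs were -0.34 to 0.22, -0.40 to 0.16 and -0.07 to 0.50. Without the in vivo library of mouse 1 it was lower in the in vivo iSEPs than in keratinocytes (adjusted p = 0.0409).

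Tcf7l1, the repressive TCF of epidermal progenitors, was the main TCF in every library. It read 8.62, 7.34 and 7.61 FPKM in ADSCs, 2.05, 3.33 and 2.44 in the in vitro iSEPs, 4.12, 3.62 and 4.71 in the in vivo iSEPs, and 6.55, 3.52 and 3.1 in keratinocytes, and fell, with differences of -1.31 ± 0.22 (adjusted p = 4.87e-04), -0.78 ± 0.22 (adjusted p = 0.0131) and -0.77 ± 0.22 (adjusted p = 0.0131). The keratinocyte call was lost without the keratinocyte library of mouse 2 (adjusted p = 0.0548) or mouse 3 (0.0611).

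Tcf7 and Tcf7l2 fall outside the rule for full values. Tcf7 rose in keratinocytes over ADSCs, from 0.293, 0.172 and 0.223 to 1.25, 1.13 and 1.05 FPKM (0.80 ± 0.14, adjusted p = 5.21e-04). In vitro iSEPs were below keratinocytes by -0.50 ± 0.14 (adjusted p = 0.0402). That call was lost with the mouse as a block (0.0686), without any single library of either group (0.0539 to 0.124), and with 0.1 instead of 1 added to FPKM (0.0621). Against ADSCs they were not called (0.30 ± 0.14, adjusted p = 0.0869). They were called without the in vitro library of mouse 1 (0.0221) or mouse 1 in every group (0.0182), with 0.1 added (0.0447) and with no filter (0.0462). In vivo iSEPs were called over ADSCs with 0.1 added (0.0268) and with no filter (0.0302). In vivo iSEPs lay below keratinocytes by -0.46 ± 0.14 (adjusted p = 0.0693), called without the in vivo library of mouse 1 (0.04999) and with no filter (0.039). Tcf7l2 ranged from 1.17 to 3.77 FPKM and was lower in the in vitro iSEPs than in ADSCs by -0.51 ± 0.19 (adjusted p = 0.041). That call was lost with the mouse as a block (0.0517) and without the ADSC library of mouse 1 (0.13) or 3 (0.0517) or the in vitro library of mouse 1 (0.12) or 3 (0.087). In keratinocytes against ADSCs Tcf7l2 was called without the ADSC library of mouse 2 (0.0362). Lef1, the TCF of hair matrix cells, was at most 0.151 FPKM in every library.

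**Figure D5:**
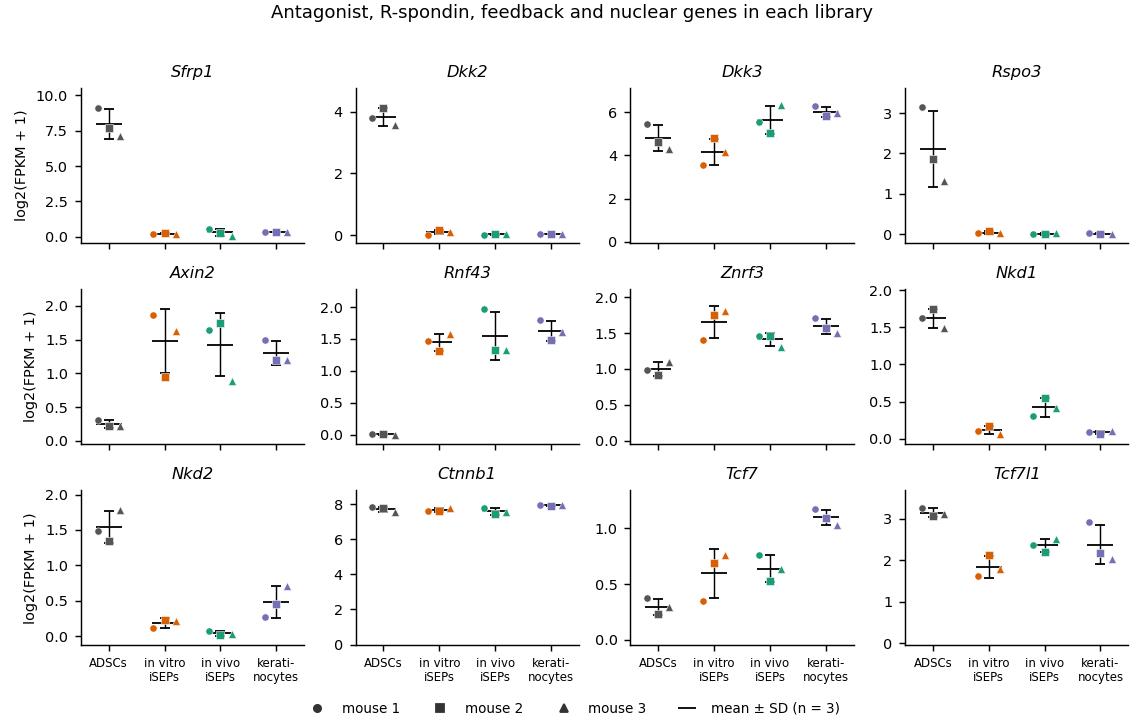
Level of antagonist, R-spondin, feedback and nuclear genes, as log2(FPKM + 1), in each library by group, with vertical scales that differ between panels. Points are libraries shaped by mouse, and bars are mean ± SD of 3. Sfrp1, Dkk2 and Rspo3 are high in ADSCs alone, Axin2 and Rnf43 are higher and Nkd1 and Nkd2 lower in the epithelial groups, and the keratinocytes have the 3 highest Ctnnb1 levels, a difference not called.

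Set against keratinocytes, 6 of the 10 genes called in vitro and 4 of the 6 called in vivo were ligands, as are 12 of the 37 tested. By libraries that do not overlap, ligands were 8 of 20 genes in vitro and 6 of 17 in vivo. All 5 genes called higher in the in vitro iSEPs (Wnt3, Wnt5a, Wnt6, Wnt7a and Wnt10a) and 3 of the 4 in the in vivo iSEPs (Wnt5a, Wnt6 and Wnt7a, with Fzd6) were ligands. The 5 called lower in vitro were Wnt9a, Fzd2, Fzd7, Dkk3 and Tcf7, and the 2 in vivo were Wnt9a and Fzd7. The median difference over the 37 genes was -0.10 in vitro and -0.02 in vivo, beside -0.02 and -0.05 over all genes. For 20 and 17 of the 37 the libraries of the 2 groups did not overlap, shares of 54.1% and 45.9% beside 40.8% and 27.8% of all genes. With only the 2 groups compared in the fit, 2 higher and 0 lower were called in vivo, beside 1.9% and 1.53% of all genes. Without the keratinocyte library of mouse 2 the counts were 2 higher and 3 lower in vitro and 2 and 0 in vivo. Of all genes, 1.96% were then higher and 2.28% lower in vitro, and 1.48% and 1.42% in vivo.

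In vivo and in vitro iSEPs were not told apart by any of the 37 genes at an adjusted p below 0.05. At an unadjusted p below 0.05 in limma there were 9: Wnt3, Wnt7a, Wnt9a, Wnt10a, Fzd2, Fzd10, Dkk3, Nkd1 and Tcf7l1, beside 14.9% of all genes. The intervals leave room for sizeable differences (95%, in vivo minus in vitro): -4.15 to -0.06 for Wnt3, 0.09 to 2.5 for Wnt9a, 0.01 to 2.49 for Fzd10 and 0.62 to 2.35 for Dkk3. Others were bounded more closely, with -0.69 to -0.10 for Wnt10a, -0.02 to 0.65 for Lrp5 and -0.34 to 0.22 for Ctnnb1. Wnt7a, at 7.42, 8.22 and 10.5 FPKM in vivo against 6.91, 3.24 and 4.03 in vitro, did not overlap and differed by 0.80 ± 0.21 (adjusted p = 0.0973). Without the in vitro library of mouse 1 it was called (adjusted p = 0.0235). For 6 of the 37 genes the libraries did not overlap, beside 15.0% of all genes.

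The other pathway genes were read from a list of 53, of which 40 passed the filter. Against ADSCs, 12, 11 and 16 were higher and 8, 7 and 7 lower in the in vitro iSEPs, the in vivo iSEPs and keratinocytes. The share called was near that of all genes, 53.8%, 47.6% and 53.5%. Porcn, which attaches the lipid that ligands need for secretion, read 5.23, 3.03 and 2.2 FPKM in ADSCs, 57.7, 86.8 and 17.5 in the in vitro iSEPs, 45.7, 53.7 and 63.1 in the in vivo iSEPs, and 97.4, 129 and 124 in keratinocytes (3.40 ± 0.46, adjusted p = 9.06e-05, 3.67 ± 0.46, adjusted p = 5.82e-05 and 4.76 ± 0.46, adjusted p = 6.71e-06). Wls, the carrier of ligands to the surface, was 142 to 226 FPKM in every library and not called. Its keratinocyte difference (-0.41 ± 0.17, adjusted p = 0.0617) was called lower after median scaling (adjusted p = 0.0192), after quantile normalization (0.0185), with only the 2 groups in the fit (0.0193) and without the ADSC library of mouse 3 (0.0446).

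Of the 9 noncanonical and polarity genes tested, 4 were higher and 3 lower than in ADSCs in the in vitro iSEPs, 4 and 1 in the in vivo iSEPs, and 5 and 2 in keratinocytes. Of all genes, 32.1%, 27.6% and 32.8% were higher and 21.7%, 20.0% and 20.7% lower. Celsr1 and Celsr2, cadherins of planar polarity that act with Fzd6, were at most 0.024 FPKM in ADSCs. Celsr1 read 11.3, 7.07 and 5.78 in the in vitro iSEPs, 7.24, 8.93 and 5.08 in the in vivo iSEPs, and 7.7, 7.0 and 7.52 in keratinocytes, and Celsr2 3.02, 3.15 and 4.24, 3.96, 3.68 and 3.88 and 8.41, 9.22 and 9.27. Both rose in all 3 groups, as did the polarity proteins Vangl1 and Vangl2 (by 0.66 to 2.59), named after their values were seen. Celsr2 was lower in iSEPs than in keratinocytes (-1.17 ± 0.13, adjusted p = 5.44e-04 and -1.04 ± 0.13, adjusted p = 0.0011). Ror2, the Wnt5a coreceptor, read 9.7, 7.51 and 8.01 FPKM in ADSCs, 2.53, 4.69 and 2.68 in the in vitro iSEPs, 5.72, 8.39 and 6.12 in the in vivo iSEPs, and 0.88, 0.393 and 0.311 in keratinocytes. Like Wnt5a it was higher in both kinds of iSEP than in keratinocytes (1.48 ± 0.22, adjusted p = 0.00278 and 2.35 ± 0.22, adjusted p = 3.39e-04). Prickle1, a cytoplasmic polarity protein, was lower than in ADSCs in all 3 groups (-1.32 ± 0.23, adjusted p = 5.34e-04, -1.34 ± 0.23, adjusted p = 5.41e-04 and -1.18 ± 0.23, adjusted p = 0.00113).

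Other extracellular and membrane genes included Apcdd1, which blocks Wnt at the membrane in hair follicles. Apcdd1 read 1.39, 0.5 and 1.27 FPKM in ADSCs and 10.3, 16.6 and 11 in the in vitro iSEPs. In vivo iSEPs read 21.3, 17.3 and 3.65 and keratinocytes 3.15, 9.41 and 7.42. It rose in each (2.73 ± 0.53, adjusted p = 0.00124, 2.62 ± 0.53, adjusted p = 0.00188 and 1.83 ± 0.53, adjusted p = 0.0137). Cthrc1, a stromal glycoprotein that stabilises Wnt and Ror2 complexes, read 59, 63.4 and 74.3 FPKM in ADSCs, 2.15, 2.42 and 3.9 in the in vitro iSEPs, 2.25, 7.47 and 3.44 in the in vivo iSEPs, and 0.688, 0.239 and 0.172 in keratinocytes. It fell in all 3 groups and stayed higher in iSEPs than in keratinocytes (1.48 ± 0.31, adjusted p = 0.0137 and 1.88 ± 0.31, adjusted p = 0.0052). Kremen1, a Dkk receptor, rose in keratinocytes (0.40 ± 0.14, adjusted p = 0.0293). The in vitro Cthrc1 call against keratinocytes was lost without the in vitro library of mouse 3 or the keratinocyte library of mouse 2 or 3 (adjusted p = 0.0558 to 0.0595). The keratinocyte call of Apcdd1 was lost without the ADSC or the keratinocyte library of mouse 2 (0.0542 and 0.0561), and that of Kremen1 without the ADSC or the keratinocyte library of mouse 1 or 2 (0.0657 to 0.0973) and after median scaling (0.306).

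Inside the cell the changes were smaller. Csnk1a1 and Gsk3a, kinases of the complex that marks beta-catenin for destruction, were higher in all 3 groups than in ADSCs, by 0.30 to 0.64, and Gsk3b was lower in the in vitro iSEPs (-0.34 ± 0.10, adjusted p = 0.0123). Amer1, a scaffold of that complex, was higher in keratinocytes than in the other groups (1.13 ± 0.15, adjusted p = 9.28e-05 over ADSCs, -0.87 ± 0.15, adjusted p = 0.00576 and -0.90 ± 0.15, adjusted p = 0.00581 for iSEPs minus keratinocytes). Of the corepressors, Tle3 rose in all 3 groups (0.43 ± 0.12, adjusted p = 0.00915, 0.42 ± 0.12, adjusted p = 0.0118 and 0.31 ± 0.12, adjusted p = 0.0435) and Ctbp2 in keratinocytes (0.26 ± 0.10, adjusted p = 0.0406). Tle2 fell (-1.28 ± 0.34, adjusted p = 0.00857, -1.32 ± 0.34, adjusted p = 0.00811 and -1.35 ± 0.34, adjusted p = 0.00639), and the coactivator Bcl9 fell in both kinds of iSEP (-0.46 ± 0.16, adjusted p = 0.0318 and -0.53 ± 0.16, adjusted p = 0.0181). Several of these small differences lay near the threshold, and their calls were lost after another scaling or with 1 library left out. After median scaling the rises of Gsk3a, Tle3 and Ctbp2 in keratinocytes had adjusted p of 0.439, 0.439 and 0.647, and those of Gsk3a and Tle3 were not called in either kind of iSEP (0.0575 to 0.206). Csnk1a1 was then not called in the in vivo iSEPs or keratinocytes (0.0778 and 0.0742). With the mouse as a block, Tle3 in keratinocytes was lost (0.0659). Without 1 library of either group, the keratinocyte calls were lost for Gsk3a with any of the ADSC libraries of mouse 1 and 2 or any keratinocyte library out (0.0549 to 0.0734), for Ctbp2 with the same ones out (0.0821 to 0.126), and for Tle3 with the ADSC libraries of mouse 2 or 3 or any keratinocyte library out (0.0747 to 0.139). The in vivo call of Gsk3a was lost without the ADSC or in vivo library of mouse 2 (0.055 and 0.0743). Bcl9 was lost in vitro without the ADSC library of mouse 1 or any in vitro library (0.0617 to 0.113), and in vivo without the ADSC or the in vivo library of mouse 1 (0.0689 and 0.0582).

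Of 10 widely used beta-catenin targets, Sp5 was listed at 0 in every library, and Tnfrsf19 and Cdx1 read at most 0.257 and 0.021 FPKM. The other 7 passed the filter. Against ADSCs 3, 2 and 3 were higher and 1, 3 and 3 lower in the in vitro iSEPs, the in vivo iSEPs and keratinocytes, beside 53.8%, 47.6% and 53.5% of all genes called in either direction. Ccnd1, the cell cycle gene for cyclin D1, read 20.3, 12.3 and 17.6 FPKM in ADSCs, 66.9, 109 and 123 in the in vitro iSEPs, 44.2, 31.5 and 27.7 in the in vivo iSEPs, and 58.2, 99.1 and 127 in keratinocytes. It was the one gene of the 53 called between the kinds of iSEP (-1.49 ± 0.32, adjusted p = 0.0465, in vivo minus in vitro), with no overlap. That call was lost with the mouse as a block (adjusted p = 0.0755) and without the in vitro or the in vivo library of mouse 2 or of mouse 3 (0.0762 to 0.179). The in vivo rise over ADSCs (1.00 ± 0.32, adjusted p = 0.0222) was lost without the ADSC library of mouse 2 (0.0908) or the in vivo library of mouse 1 (0.079). Myc read 19.9, 24.5 and 33.2, 153, 72.5 and 98.8, 57.9, 80.4 and 63.9 and 56.3, 62.9 and 70.0 FPKM in the same groups. It rose in all 3 groups (1.99 ± 0.26, adjusted p = 6.63e-05, 1.36 ± 0.26, adjusted p = 0.00114 and 1.28 ± 0.26, adjusted p = 0.00158), and in iSEPs reads from an introduced MYC and from the mouse gene were not told apart.

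Twist1, a mesenchymal regulator, kept an intermediate level in iSEPs. It read 34.4, 33.3 and 26.5 FPKM in ADSCs, 8.58, 4.15 and 8.72 in the in vitro iSEPs, 18.5, 12.9 and 5.48 in the in vivo iSEPs, and 0.714, 0.723 and 0.715 in keratinocytes. It fell in all 3 groups against ADSCs and was higher in iSEPs than in keratinocytes (2.19 ± 0.36, adjusted p = 0.00411 and 2.81 ± 0.36, adjusted p = 0.00134). Fosl1, an AP-1 subunit, fell in the in vivo iSEPs and keratinocytes (-1.03 ± 0.34, adjusted p = 0.0273 and -1.87 ± 0.34, adjusted p = 7.99e-04) and was higher in the in vitro iSEPs than in keratinocytes (1.22 ± 0.34, adjusted p = 0.0431). The in vivo fall was lost without the ADSC library of mouse 2 or 3 or the in vivo library of mouse 1 or 3 (adjusted p = 0.0608 to 0.11). The difference from keratinocytes was lost with the mouse as a block (0.073) and without the in vitro library of mouse 1 or 2 or any keratinocyte library (0.0608 to 0.124).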

How the data were processed

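RNA-seq was made from 1 µg of total RNA with an Illumina TruSeq kit, per the labels' protocols. The authors deposited FPKM values for 24537 mm10 genes in 12 libraries. STAR 2.5.1b, HOMER and FastQC 0.11.5 are named in the submitters' processing notes, and no strand setting is given there. Another 3 columns matched no sample and were not used. Low FPKM values in every library were whole multiples of 1 read within 0.15 reads (100% of those examined), which gave the depth estimates.

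Groups were compared with limma 3.58.1 (R 4.3.3, trend and moderated variance, two-sided) on log2(FPKM + 1) with 4 group means over all 12 samples, on the 12364 genes that reached 1 FPKM in 3 or more libraries, adjusted by Benjamini-Hochberg. The fit was tested on simulated data. Values per library are given for genes with a group mean of at least 5 FPKM, or called with a log2 difference of at least 1. The genes and lists were chosen with earlier results of these data known. Of the other pathway genes, up to 2 called in each direction with the largest change per list and comparison with ADSCs are named.

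Same-numbered samples come from the same mouse, per the labels. Over 18 same-mouse pairs the correlation of deviations from group means ran from -0.178 to 0.21, with a median of 0.0451 and 6 pairs above 0.1. Each p-value of the main fit sets a difference of group means against the spread within groups of 3, pooled over the 4 groups and moderated. A widely spread group thus also enters the tests between other groups. Alternatives changed the pseudocount, the filter, the scaling and the samples in the fit, added the mouse as a block, or left out a library or a mouse. Promoter letters come from RefSeq windows.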

Additional observations from a re-analysis of the deposited data

How the results depend on the processing

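Of the calls against ADSCs in the in vitro iSEPs, the in vivo iSEPs and keratinocytes, 24 of 29, 21 of 28 and 21 of 27 held in every alternative that tested the gene. Against keratinocytes 1 of 10 held for in vitro iSEPs, Wnt9a, and 0 of 6 for in vivo iSEPs. A filter of 5 FPKM tested fewer genes and left 9 higher and 9 lower in in vitro iSEPs than in ADSCs, and 10 and 9 in vivo. Of all genes then tested, 36.1% were higher and 20.6% lower in vitro, and 31.5% and 18.4% in vivo. Without a filter more genes entered and 22, 20 and 19 were lower than in ADSCs in the 3 groups. The shares of all genes lower were then 19.2%, 17.7% and 18.5%. With only the 2 groups compared, 2 higher and 0 lower were called between in vivo iSEPs and keratinocytes, beside 1.9% and 1.53% of all genes.

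Leaving out 1 library or 1 mouse gave 11 to 15 higher and 13 to 16 lower genes in in vitro iSEPs against ADSCs, 12 to 16 and 10 to 15 in in vivo iSEPs, and 13 to 15 and 9 to 14 in keratinocytes. Against keratinocytes the ranges were 1 to 5 and 1 to 4 in vitro and 0 to 6 and 0 to 4 in vivo, and between the kinds of iSEP 0 to 1 and 0 to 0. Calls over all genes moved too. Without mouse 2 in every group, 0.809% of all genes were higher and 0.752% lower in vitro than in keratinocytes, from 5.22% and 6.12%. In vivo these shares were 0.178% and 0.105%, from 3.41% and 4.08%. Against ADSCs they were 18.8% and 15.9% in vitro, 15.5% and 12.7% in vivo, and 17.9% and 13.8% in keratinocytes. Without in vivo iSEP replicate 3, Wnt11 reversed against ADSCs to -0.56, the lowest of its differences with a library or mouse left out, which ran up to 0.81. The high value of that library is the only one above 1 FPKM in its group.

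With the mouse as a replicate block the counts were 14 and 14, 14 and 13, and 15 and 13 against ADSCs, 5 and 4, and 4 and 2 against keratinocytes, and 0 and 0 between the kinds of iSEP. The block changed the calls of Fzd7, Znrf3, Tcf7 and Tcf7l2 given above and of no other of the 37 genes. Median scaling lowered the median of all genes in in vitro iSEPs against ADSCs from 0.15 to -0.01. Groups of 3 and low FPKM limit what can be seen for the feedback regulators, the R-spondins and the ligands under 1 FPKM.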
